A study of Mus musculus with 2 samples.

Results

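Keratin and keratin-associated protein genes were examined in lists of methylated liver regions from a single Pemt-/- mouse and a single Pemt+/+ mouse. Members were the genes whose symbol in the longer list of either mouse was Krt or Krtap followed by a number, except Krt7, Krt8, Krt18 and Krt19. There were 71 such genes among the 14480 genes of both lists. Of these, 64 of 13071 listed genes were found in Pemt-/-, 69 of 14145 in Pemt+/+ and 62 in both. They had 90 of the 97063 regions in Pemt-/- and 124 of the 131279 regions in Pemt+/+.

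Pemt encodes the enzyme that methylates phosphatidylethanolamine to phosphatidylcholine with S-adenosylmethionine as the methyl donor. Both mice received high fat-high sucrose (HFHS) chow, which the sample records date from 5 weeks of age to the removal of the liver at 25 weeks. Methylated DNA was captured with a kit and sequenced, so that methylated DNA appears as regions where reads (tags) pile up. The study's Methods give shorter feeding times beside the enrichment step, and several mice per genotype, whereas the records name a single mouse for each library. Each genotype is thus a single library, no replicate check or test was possible, and every comparison below is of these libraries. Strain was not given, the Methods describe male mice, and RNA was not measured in these libraries, so that neither the deletion of Pemt nor the liver label could be checked here.

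Keratins are the intermediate filament proteins of epithelia, and each filament pairs a type I with a type II keratin. In the mouse the type I genes lie together on chromosome 11 and the type II genes on chromosome 15. Keratin-associated proteins (KAPs) are small cysteine-rich or glycine-tyrosine-rich proteins of the hair shaft. They are encoded by short genes in clusters, and those on chromosome 11 lie among the type I keratin genes. Hepatocytes use the simple epithelial pair Krt8 and Krt18, and bile duct cells add Krt7 and Krt19. Most of the members described here, though not all, belong to the epidermis, mucosa and hair.

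A few members had a region at the start of the transcript, either over its 5' end, over the whole transcript, or ending within 250 bp upstream. Sequences of 6 of these promoters are shown because the capture depends on methylated CG dinucleotides, which stand in capitals. Each covers 250 bases before to 50 bases after the start and is taken from RefSeq on assembly GRCm38.p6, whereas regions are given on mm9.
Krt26: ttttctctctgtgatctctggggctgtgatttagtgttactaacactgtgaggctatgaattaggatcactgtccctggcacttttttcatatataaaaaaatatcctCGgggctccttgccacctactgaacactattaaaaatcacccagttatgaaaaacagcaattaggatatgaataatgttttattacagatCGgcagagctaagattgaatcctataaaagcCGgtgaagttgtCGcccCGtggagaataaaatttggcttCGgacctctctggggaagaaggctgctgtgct
Krt27: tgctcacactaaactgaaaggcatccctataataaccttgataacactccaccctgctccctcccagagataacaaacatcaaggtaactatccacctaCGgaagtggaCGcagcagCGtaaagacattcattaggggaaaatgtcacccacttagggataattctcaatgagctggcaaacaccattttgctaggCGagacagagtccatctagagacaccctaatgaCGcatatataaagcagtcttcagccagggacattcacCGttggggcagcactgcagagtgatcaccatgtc
Krt28: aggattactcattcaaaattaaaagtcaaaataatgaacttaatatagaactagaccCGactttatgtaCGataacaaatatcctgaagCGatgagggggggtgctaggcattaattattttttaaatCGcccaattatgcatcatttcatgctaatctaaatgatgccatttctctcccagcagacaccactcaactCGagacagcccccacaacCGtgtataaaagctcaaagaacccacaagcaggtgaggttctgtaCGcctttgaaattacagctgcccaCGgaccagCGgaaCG
Krt72: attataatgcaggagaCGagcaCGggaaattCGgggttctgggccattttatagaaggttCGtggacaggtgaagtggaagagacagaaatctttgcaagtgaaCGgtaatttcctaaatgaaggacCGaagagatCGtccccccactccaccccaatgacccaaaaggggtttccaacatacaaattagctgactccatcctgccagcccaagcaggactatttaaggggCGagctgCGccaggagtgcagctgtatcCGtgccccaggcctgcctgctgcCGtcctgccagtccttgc
Krt82: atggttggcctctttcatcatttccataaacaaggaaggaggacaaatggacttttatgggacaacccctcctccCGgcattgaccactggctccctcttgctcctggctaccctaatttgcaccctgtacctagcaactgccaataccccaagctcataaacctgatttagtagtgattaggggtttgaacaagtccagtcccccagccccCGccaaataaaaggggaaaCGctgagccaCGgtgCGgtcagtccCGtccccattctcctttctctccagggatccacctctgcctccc
Krtap1-5: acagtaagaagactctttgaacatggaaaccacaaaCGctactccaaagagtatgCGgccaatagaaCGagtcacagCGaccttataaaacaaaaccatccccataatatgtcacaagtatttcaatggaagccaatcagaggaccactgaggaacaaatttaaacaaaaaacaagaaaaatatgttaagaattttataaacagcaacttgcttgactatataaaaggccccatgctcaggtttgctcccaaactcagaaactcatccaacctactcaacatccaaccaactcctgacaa
The Krt26 sequence lies at chr11:99337916-99338215, Krt27 at chr11:99351069-99351368 and Krt28 at chr11:99374854-99375153. Krt72 lies at chr15:101786471-101786770, Krt82 at chr15:101550610-101550909 and Krtap1-5 at chr11:99580967-99581266, and all 6 are read from the minus strand. They held 6, 6, 10, 11, 6 and 4 CG dinucleotides, respectively.

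CG dinucleotides were scarce in the promoters of these families. The letters CG, which read the same on both strands, were counted in 84 RefSeq promoters of 83 keratin and KAP genes, whether or not the gene was listed. The median was 3 per promoter (quartiles 2 and 5), compared with 7 (quartiles 3 and 20) over all 32851 promoters. At least 1 CG was present in 88.1% of the member promoters and in 94.6% of all promoters. At least 10 were present in 2 member promoters (2.38%), those of Krt28 and Krt72, and in 43.5% of all promoters. The 33 keratin promoters had a median of 5 and the 51 KAP promoters a median of 2.

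**Figure D1:**
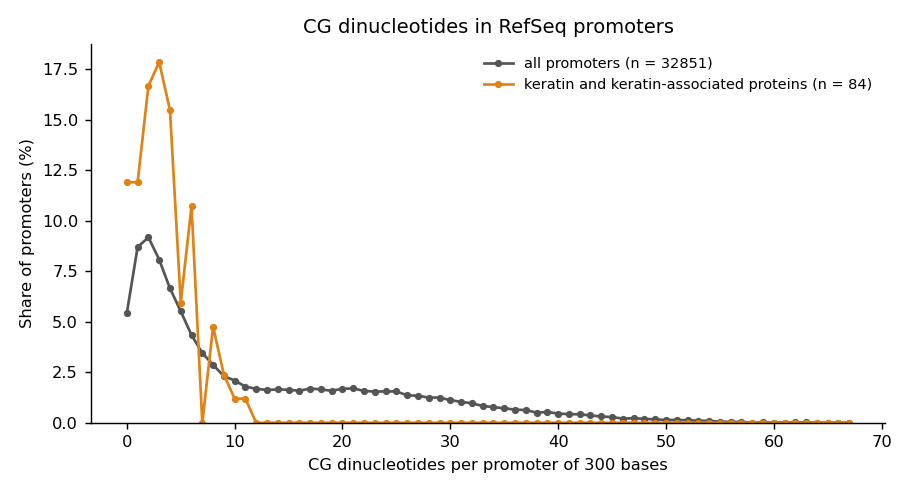
Share of promoters (%) by number of CG dinucleotides in 300 bases, for all RefSeq promoters (grey) and for the keratin and KAP promoters (orange). The member promoters end at 11 CG dinucleotides, whereas all promoters reach 67.

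Regions at a start were found for 5 of the 64 members listed in Pemt-/- (7.81%, 95% Wilson confidence interval 3.38 to 17.0%), beside 2.38% of all listed genes. In Pemt+/+ they were found for 9 of 69 members (13.0%, interval 7.02 to 23.0%), beside 3.14% of all listed genes. These intervals, like all below, cover counting error only, since reads without molecular identifiers are not independent molecules and neighbouring genes share regions.

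Krt26, Krt27 and Krt28 encode type I keratins of the inner root sheath, the sleeve that guides the growing hair. At Krt28 the region over the 5' end held 31 tags in Pemt-/- (chr11:99235598-99236440) and 53 in Pemt+/+ (chr11:99235543-99236235). At Krt26 it held 17 tags in Pemt-/- (chr11:99199143-99199487) and 36 in Pemt+/+ (chr11:99199075-99199458). Relative to the start it ran from -209 to 135 bp in Pemt-/- and from -180 to 203 bp in Pemt+/+, windows that take in all 6 CG dinucleotides shown above for Krt26. At Krt27 a start region of 19 tags was listed in Pemt+/+ only (chr11:99212031-99212711).

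Among type II keratins, Krt4, the oesophageal partner of Krt13, had 25 tags over its 5' end in Pemt-/- (chr15:101754509-101755207) and 29 in Pemt+/+ (chr15:101754468-101755236). Krt82, a keratin of the hair cuticle, had 9 and 12 tags there, with 5 of its 6 promoter CG dinucleotides inside the region in both mice. Krt72, an inner root sheath keratin whose promoter held the most CG among the 84 member promoters read (Krt4, Krt80 and Krt85, among others, had none in the table), had a start region of 14 tags in Pemt+/+ only (chr15:101616747-101617271), which spanned all 11. Krt80 had a region of 13 tags ending 220 bp upstream, also in Pemt+/+ only.

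KAP genes had start regions at 2 members. Krtap1-5, a high-sulphur KAP, had 12 tags in a region ending 5 bp upstream in Pemt-/- (chr11:99442335-99442843) and 26 in one ending 23 bp upstream in Pemt+/+ (chr11:99442353-99442890). Both regions took in its 4 promoter CG dinucleotides. At Krtap8-2 a region of 21 tags covered the whole transcript in Pemt+/+, and its Pemt-/- counterpart of 13 tags reached over the 3' end but not the start. The overlap of regions with CG dinucleotides rests on distances from the start, and transcript spans in the lists and in RefSeq matched within 1 bp for Krt26, Krt82 and Krtap8-2. For Krt27, Krt72 and Krtap1-5 the spans differed (5529 and 5554, 9899 and 10349, 1033 and 1040 bp), so that the start may differ there.

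Most keratin regions lay inside or overlapped a transcript, and most KAP regions lay beside the KAP transcripts. Of keratin regions, 57.4% in Pemt-/- (interval 44.2 to 69.7%) and 64.3% in Pemt+/+ (interval 53.6 to 73.7%) lay inside or overlapped a transcript. The shares were 2.63% and 5.00% for KAP regions, and 81.8% and 81.5% for all regions with a gene. The keratin counts include 6 Pemt-/- and 9 Pemt+/+ regions inside a 175.8 kb span listed for Krt85. Over all members the share was 35.6% in Pemt-/- and 45.2% in Pemt+/+, and 33.0% and 41.3% without Krt85. No KAP region lay wholly inside a KAP transcript, while 2 Pemt-/- regions downstream of Krtap3-3 lay inside Krt40 and count in both families. Gene length moves with this pattern, and its part was not tested. The median length was 7.42 kb for keratin genes, 0.833 kb for KAP genes and 17.1 kb for all protein-coding genes.

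**Figure D2:**
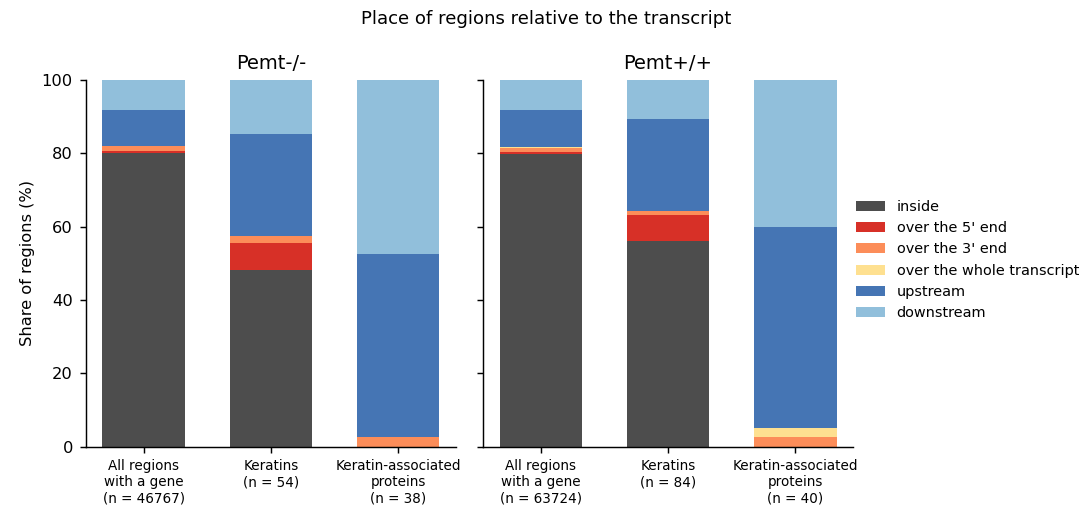
Share of regions (%) by place relative to the transcript in Pemt-/- (left) and Pemt+/+ (right), for all regions with a gene, keratin regions and KAP regions, with n regions under each bar. Regions inside the transcript take up the largest part of the keratin bars (48.1% in Pemt-/- and 56.0% in Pemt+/+) and the KAP bars are almost wholly upstream or downstream.

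Being listed at all was about as frequent over both families together as over all genes. The lists and RefSeq were joined by gene identifier, which 70 of the 71 members had in RefSeq, and some symbols have changed since (the listed Krt83 is now Krt87). Of 101 protein-coding genes that the symbol rule finds in RefSeq, 65 were listed in Pemt-/- (64.4%, interval 54.7 to 73.0%), compared with 58.4% of all 21896 protein-coding genes. In Pemt+/+ 70 were listed (69.3%, interval 59.7 to 77.5%), compared with 63.1%. Keratins were listed at 75.6% in Pemt-/- (34 of 45, interval 61.3 to 85.8%) and 80.0% in Pemt+/+ (36 of 45, interval 66.2 to 89.1%), with intervals above the shares of all protein-coding genes. KAPs were listed at 55.4% and 60.7%.

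Listed genes made up 22 of 24 type I and 16 of 21 type II keratins, 13 of 23 KAPs on chromosome 11 and 15 of 24 on chromosome 16. Neither mouse had a listed region at Krt1, the partner of Krt10 in the upper epidermis, at Krt15, a basal layer keratin, or at the hair keratins Krt35, Krt81, Krt83 (by its present symbol) and Krt84. Krt77 and 22 KAP genes were also without one. The lists hold only regions above the caller's threshold, so that a gene without a region is not shown to be unmethylated.

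Regions at members were of ordinary height. Their median was 13 tags in Pemt-/- and 17 in Pemt+/+, the same as over all regions, and they ranged from 8 to 45 and from 9 to 63 tags. Mean fold enrichment over the background was 18.2 and 18.4, beside 18.6 over all regions in each mouse. Members held 1360 tags in Pemt-/- and 2504 in Pemt+/+, of the 1582080 and 2847831 tags in all listed regions. The Pemt-/- share of the members' tags was 35.2% (interval 33.7 to 36.7%). The sums depend on the number of regions called, and the lists give no library totals. The regions covered 41.1 kb in Pemt-/- and 56.9 kb in Pemt+/+.

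Type I keratins carried the largest part of these tags, with 528 in 34 regions in Pemt-/- and 1078 in 50 regions in Pemt+/+. Krt28 had 101 tags in Pemt-/- and 188 in Pemt+/+. Krt26 had 78 and 200, and Krt27 had 48 and 126. These 3 neighbours share regions that lie between them, and each had more tags in Pemt+/+. Krt222 had 25 tags in Pemt-/- and 96 in Pemt+/+, with 3 regions inside the gene listed in Pemt+/+ only (13, 11 and 14 tags). The lowest total was that of Krt34, a hair keratin, with 1 region of 9 tags in Pemt+/+.

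Type II keratins held 227 tags in 20 regions in Pemt-/- and 508 in 34 regions in Pemt+/+. Krt85, a keratin of the hair cortex, had the highest totals (76 and 157 tags), but its transcript in the lists spans 175.8 kb. All regions inside that span, 6 in Pemt-/- and 9 in Pemt+/+, were also assigned to another gene, so that few of these tags can be ascribed to Krt85. Krt75, of the companion layer of the follicle, had 34 and 61 tags. Krt80, an epithelial keratin, had 10 tags in 1 region in Pemt-/- and 83 tags in 5 regions in Pemt+/+, a Pemt-/- share of 10.8% (interval 5.95 to 18.7%). Krt82 had 9 and 59 tags, a share of 13.2% (interval 7.12 to 23.3%). The median share was 36.1% (quartiles 30.8 and 41.3%) over 12608 genes listed in both mice with 20 or more tags in all and 37.7% (quartiles 32.4 and 44.1%) over 60 such members. Krt80 and Krt82 lay below both quartile ranges, as did other members, such as Krt222 (20.7%) and Krt2 (22.2%). At Krt80 and at Krt82, 4 of the 5 Pemt+/+ regions had no listed Pemt-/- counterpart, whose tags then count as 0. The lowest total was that of Krt86, a hair cortex keratin, with 10 tags in Pemt-/- and no listed region in Pemt+/+.

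**Figure D3:**
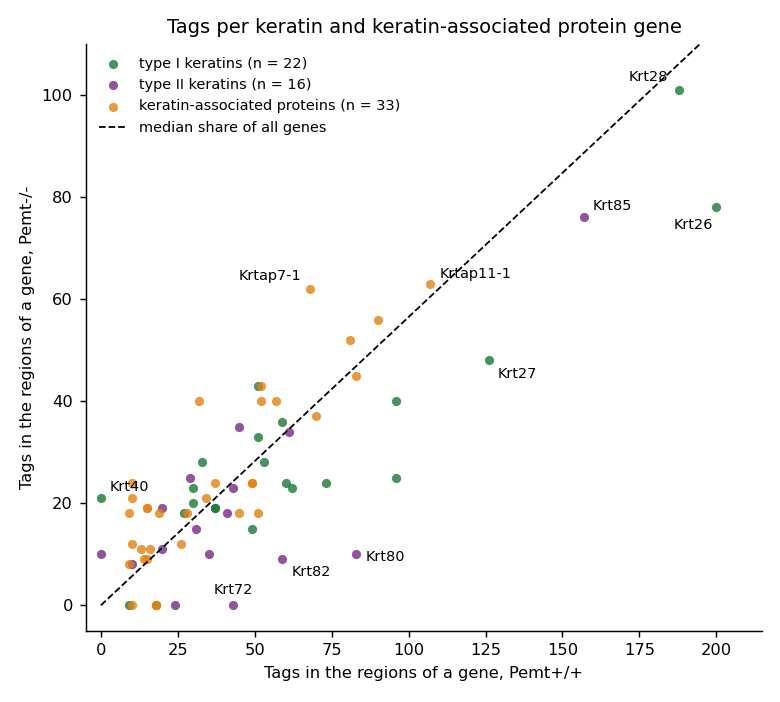
Tags in all listed regions of each member, Pemt+/+ on the x axis and Pemt-/- on the y axis, 1 point per gene, coloured by family, and the dashed line gives the median share of all genes (36.1% from Pemt-/-). Krt28 and Krt26 are farthest right at 188 and 200 tags in Pemt+/+, and Krt80 and Krt82 lie well under the line.

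KAPs on chromosome 16 held 347 tags in Pemt-/- and 514 in Pemt+/+. Krtap11-1, a hair cortex KAP, had 63 and 107 tags, Krtap16-10 had 52 and 81, and Krtap7-1, a glycine-tyrosine-rich KAP, had 62 and 68. The region with most tags of any member in Pemt+/+ lay upstream of Krtap13 (63 tags, chr16:88755060-88755620), and its Pemt-/- counterpart held 31. Krtap14 had the lowest total there, with 11 and 13 tags.

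KAPs on chromosome 11 held 208 and 300 tags, led by Krtap31-2 (56 and 90), Krtap4-6 (40 and 57) and Krtap4-16 (40 and 52), and lowest at Krtap3-2 (10 tags, in Pemt+/+). The small groups on chromosomes 7 and 10 differed in balance. Krtap5-5 on chromosome 7, an ultra-high-sulphur KAP, had 18 tags in Pemt-/- and 51 in Pemt+/+, and Krtap10-4 on chromosome 10 had 24 and 10. The Pemt-/- share was 31.5% over the chromosome 7 group (39 and 85 tags) and 62.7% over the chromosome 10 group (32 and 19 tags, interval 49.0 to 74.7%). In the chromosome 10 group a single region more was listed in Pemt-/- (3) than in Pemt+/+ (2).

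Along the chromosomes, the cluster of type I keratins and KAPs had more listed regions per Mb than chromosome 11 as a whole. Its KAP genes lie between keratin genes, and densities were not taken apart for keratins and KAPs. Cluster bounds are the ends of the first and last member regions, and counting error was not estimated for these densities. From Krt222 to Krt42 (chr11:99088966-100127250, 1.04 Mb) it held 53 regions in Pemt-/-, 51.1 per Mb beside 40.6 over the chromosome. In Pemt+/+ it held 86 regions, 82.8 per Mb beside 57.7. The type II cluster from Krt80 to Krt78 (chr15:101173534-101793550) had 41.9 and 62.9 regions per Mb, beside 40.9 and 55.7 over chromosome 15. The cluster from Krtap13 to Krtap11-1 (chr16:88750225-89581335) had 37.3 and 48.1, slightly below the 38.3 and 50.8 of chromosome 16. Pemt lies on chromosome 11 too, 39.2 Mb from the keratin and KAP cluster there.

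Stretches without a listed region in either mouse interrupted these clusters. The longest was 107 kb on chromosome 11, between chr11:99609950 and chr11:99717216, 102 kb on chromosome 15, between chr15:101420657 and chr15:101522974, and 128 kb on chromosome 16, between chr16:89187179 and chr16:89315498. Whether reads could be placed uniquely in these repeated gene families is not given in the sources used here.

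**Figure D4:**
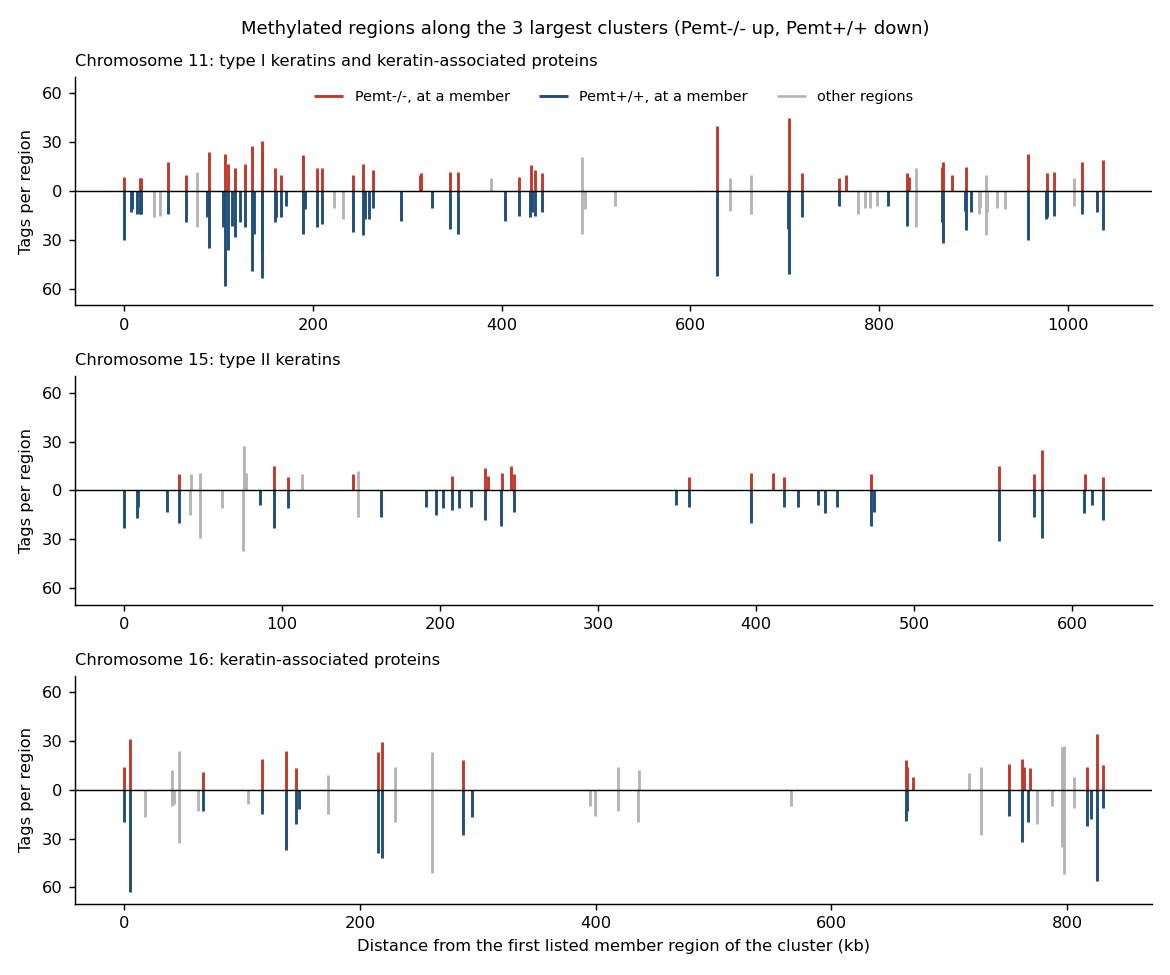
Tags per region (y axis, Pemt-/- upward and Pemt+/+ downward) against distance from the first listed member region (x axis, kb) in the clusters of chromosomes 11, 15 and 16, with regions at members coloured and other regions grey. Bars are denser on chromosome 11, and the gaps of 107, 102 and 128 kb appear as empty stretches.

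Regions were next compared between the mice. A region was taken as found in one mouse only if it overlapped no region of the other list by 1 bp or more. This held for 14 of 90 member regions in Pemt-/- (15.6%, interval 9.50 to 24.4%), beside 16.7% of all regions. In Pemt+/+ it held for 47 of 124 (37.9%, interval 29.9 to 46.7%), beside 38.4%. The members' shares were thus near those of the whole lists, which differ in length.

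In Pemt+/+ the intervals of the 4 larger families all contained the 38.4% of all regions. The share was 42.0% for type I keratins (21 of 50, interval 29.4 to 55.8%) and 52.9% for type II keratins (18 of 34, interval 36.7 to 68.6%). It was 21.4% for KAPs on chromosome 11 (3 of 14, interval 7.57 to 47.6%), and 4 of 20 KAP regions on chromosome 16 were without a counterpart (interval 8.07 to 41.6%). In Pemt-/- 5 of 34 type I, 4 of 20 type II, 3 of 13 chromosome 11 KAP and 3 of 19 chromosome 16 KAP regions had none.

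The Pemt+/+ regions without a counterpart had a median of 14 tags at members, compared with 20 for those with one. Over all Pemt+/+ regions these medians were 13 and 22. The highest were 26 tags inside Krt28 (chr11:99226392-99226975), 25 downstream of Krt23 (chr11:99331967-99332547) and 23 downstream of Krt80 (chr15:101173534-101173834). Members with listed regions in Pemt+/+ alone were Krt72 (4 regions, 43 tags), its neighbour Krt73 (24 tags, in 2 of the same 4 regions), the hair keratins Krt34 (9) and Krt39 (18), and Krtap3-2 (10), Krtap4-1 and Krtap4-2 (1 shared region of 18). Such members were about as frequent as over all genes. Pemt-/- listed 64 of the 71 members and 13071 of all 14480 genes.

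In Pemt-/- the member regions without a counterpart had a median of 10 tags and at most 15, at Krt85. The median was also 10 over all such Pemt-/- regions. Members with listed regions in Pemt-/- alone were Krt40, a hair keratin with 2 regions of 10 and 11 tags inside the gene, and Krt86 (10 tags). This too was near the frequency over all genes. Pemt+/+ listed 69 of the 71 members and 14145 of all 14480 genes. Counts this close to the smallest listed region (8 tags in Pemt-/- and 9 in Pemt+/+) do not show that the same DNA lacked tags in the other mouse.

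In the regions that overlapped one to one, the tag ratio of Pemt-/- over Pemt+/+ was compared with that of all 79393 pairs, whose median was 0.682 (quartiles 0.545 and 0.850). The median was 0.658 over 75 member pairs, 66 of which had fewer tags in Pemt-/- (85.3% of all pairs did). By family it was 0.636 for 29 type I pairs, 0.683 for 16 type II pairs, 0.670 for 16 KAP pairs on chromosome 16 and 0.769 for 9 on chromosome 11. All 16 type II pairs had fewer tags in Pemt-/-.

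Of the member pairs, 8 (10.7%, interval 5.51 to 19.7%) lay at least 1.5-fold above the median of all pairs, beside a background of 10.4%. Another 4 (5.33%, interval 2.09 to 12.9%) lay at least 1.5-fold below it, beside 11.2%. Neither share was far from the background given its interval. The highest ratios were 1.36 upstream of Krtap11-1 (15 and 11 tags), 1.30 inside Krt23 (13 and 10 tags), and 1.29 downstream of both Krt16, a keratin induced in wounds, and Krt24 (18 and 14 tags each). The other pairs above were those of Krtap16-9 (1.27), Krtap4-6 (1.23), Krtap10-4 (1.20) and Krtap6-2 (1.08).

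The lowest ratio was 0.300 downstream of Krt222 (9 and 30 tags), and 0.765% of all pairs had a lower one. It was 0.397 inside Krt26 (23 and 58 tags), a Pemt-/- share of 28.4% (interval 19.7 to 39.0%) beside 39.9% over the tags of all pairs. This pair was named for its low ratio, which its interval does not allow for, and 5.1% of all pairs had a lower ratio. Krt78 followed with 0.444 (8 and 18 tags) and Krt2, of the upper epidermis, with 0.455 (10 and 22 tags). Lower ratios than these were found in 9.47% and 10.9% of all pairs, respectively.

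**Figure D5:**
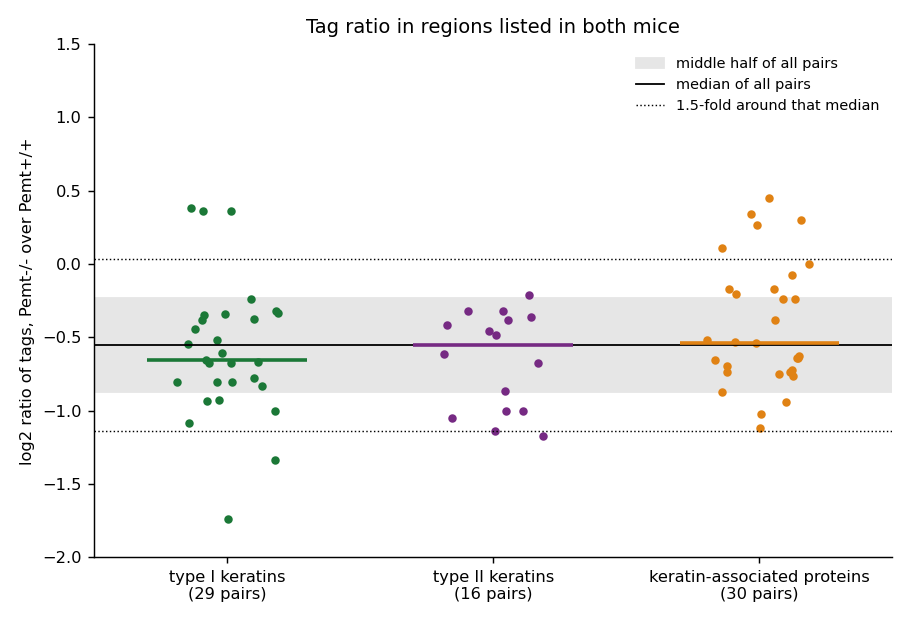
Log2 ratio of tags, Pemt-/- over Pemt+/+ (y axis), in regions listed in both mice, 1 point per pair, for type I keratins, type II keratins and KAPs (x axis). Coloured lines are family medians, the black line and grey band the median and middle 50% of all pairs, and dotted lines 1.5-fold around that median, and most points fall inside the dotted lines.

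Few member regions also appeared in the shorter list of the same mouse, and what sets the lists apart is not given in the sources. In Pemt-/- it was 1 of 90 (1.11%, interval 0.196 to 6.03%), beside 2.13% of all regions, and this region of 15 tags lay in the long span given to Krt85, with a deposited false discovery rate (FDR) of 100%. In Pemt+/+ it was 6 of 124 (4.84%, interval 2.24 to 10.2%), beside 4.59%. They lay inside Krt26 (58 tags), inside Krt13 (12 tags), at Krt80 (23 and 10 tags), inside Krt71, an inner root sheath keratin (20 tags), and downstream of Krtap16-8 (17 tags). Their FDR in that list ran from 22.5 to 34.1%, so that none was listed there with a low error rate. The regions of Krt26 and Krt71 also overlapped regions of the longer Pemt-/- list.

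The simple epithelial keratins that the symbol rule leaves out gave a comparison with keratins that liver cells do use. Krt8 had 3 regions inside the gene in Pemt+/+ (13, 9 and 16 tags) and none listed in Pemt-/-. Krt19 had 5 regions in Pemt+/+ (74 tags) and 1 in Pemt-/- (10 tags), while Krt7 and Krt18 were not listed in either mouse. The Pemt-/- share of these tags was 8.20% (interval 4.51 to 14.4%), beside 35.2% at the members, with 9 regions behind it. Of the 8 Pemt+/+ regions, 7 were small (9 to 16 tags) and lacked a listed Pemt-/- counterpart, which then counts as 0. The only overlap lay inside Krt19, with 10 Pemt-/- tags against 27. The difference between the shares of 8.20% and 35.2% was not tested, since regions of 1 library are not replicates.

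Other epidermal and hair genes were read in the same way. Of the lettered keratins, outside the symbol rule by their spelling, Krt6a had 8 tags in Pemt-/- and 19 in Pemt+/+, all in regions already counted at Krt85. Krt33a had 43 tags in Pemt+/+ and no listed region in Pemt-/-. Cornified envelope genes, the clustered genes of the outermost epidermis, had 81 tags in 7 regions and 158 tags in 10, at 9 and 13 of 44 genes. Regulators of hair keratins had 593 and 951 tags at 5 of 7 genes, most of them at Lef1 (400 and 613). Liver genes had 145 and 203 tags in 9 and 8 regions. The Pemt-/- share was 11.4% at the lettered keratins, 33.9% at cornified envelope genes, 38.4% at the regulators and 41.7% at liver genes. Among the lettered keratins, 5 of 6 Pemt+/+ regions had no listed Pemt-/- counterpart, whose tags then count as 0. None of these lists had a region at a transcript start in either mouse. Only 2.38% and 3.14% of all listed genes had one, so that lists this short give no contrast with the members.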

How the data were processed

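Members and gene lists were chosen with earlier results of these data known. Reads were handled with CASAVA 1.8.2 and Bowtie on mm9, per the submitters' processing notes. The region names are those of MACS, whose version, settings and control are not given in the sources used here. The labels speak of bisulphite conversion before capture, which the Methods do not.

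The authors deposited 2 lists of different length for each mouse, which pair regions with RefSeq transcripts up to 10 kb away. The deposited tags are counts of reads in each region, not normalized. The deposited fold enrichment is a ratio over the background, the p-value is deposited as a score of 10 times its −log10, and the deposited FDR is a percent. The FDR was 0 throughout the longer lists.

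Each region was used once in a total, also where it lay near several members (25 regions in Pemt-/- and 37 in Pemt+/+), and 12 and 17 also lay near another gene. Intervals are Wilson 95% intervals. Python 3.11.15, pandas 2.3.3, numpy 2.4.6, scipy 1.17.1 and matplotlib 3.10.9 were used. Only the overlap of regions and the summed tag ratio of pairs were checked on simulated data. Named genes followed a rule: in each family the 3 members with most tags and the lowest, members with a region in a shorter list, at a start or in one mouse only, the 3 highest and 3 lowest ratios among pairs of 20 or more tags, and cluster bounds. Other genes named were chosen after their values were seen. No test was run, with 1 library per genotype. Alternatives were the upper 50% of each list by score, equal list sizes, overlap of at least 50%, regions inside or overlapping transcripts only, a 2-fold limit, and regions near no gene outside the members. Leaving out Krt85 was chosen after seeing the data.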

Additional observations from a re-analysis of the deposited data

How the results depend on the processing

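No paired analysis was possible because there is 1 library of each genotype. Under the alternatives 51 values moved by less than the limit used (the 95% interval, or 1.5 times for a count) and 21 moved further. With regions inside or overlapping transcripts only, members fell to 23 in Pemt-/- and 29 in Pemt+/+, their regions to 32 and 56 and tags to 474 and 1069, and the share found in Pemt+/+ only was 51.8% (interval 39.0 to 64.3%), beside 39.5% of all regions inside or overlapping a transcript, with 1 pair above and 2 below the 1.5-fold limits. By construction this alternative leaves fewer regions. With the upper 50% of each list by score, regions numbered 43 and 63 and tags 812 and 1646, 36.5% of Pemt+/+ regions lay inside or overlapped a transcript, and 3 pairs lay above and 0 below the limits. With lists of equal size, the share found in Pemt+/+ only was 23.9% at members and 28.1% over all regions, and 2 pairs lay below. A 2-fold limit left 1 pair above and 1 below. Without Krt85, an alternative chosen after seeing the data, 0 Pemt-/- member regions were in the shorter list. Causes of the other shifts were not tested. The smallest listed regions hold 8 tags in Pemt-/- and 9 in Pemt+/+, and what depth limits was not tested, since the lists give no library totals.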
